A study of Mus musculus with 2 samples.

Results

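The miR-130/miR-301 family was examined in unstimulated bone marrow-derived macrophages (BMDMs) through both arms of miR-130a, miR-130b, miR-301a and miR-301b. These are 8 of the 1915 mature miRNA names in the count table, taken by their names, and 7 of the 8 had counts. BMDMs are macrophages grown in culture from bone marrow progenitors, here from wild type C57/BL6 mice 8 weeks of age, in medium with L-cell conditioned medium as the source of growth factor. The deposited small RNA counts cover 2 libraries, given as biological replicates 1 and 2 of a single untreated condition. The paper states a larger number of samples for its figure of BMDM miRNAs. The labels do not say whether a library came from 1 animal or from pooled animals. With 2 libraries and no other condition, p-values below cover counting error or the difference between these libraries, never an effect of a treatment.

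miRNAs of this family are cut from hairpin precursors by Drosha and Dicer. Each hairpin can yield a mature miRNA from its 5p arm and another from its 3p arm, and usually 1 arm is retained in Argonaute while the other is degraded. Target choice rests mainly on the seed, bases 2 to 8 of the mature miRNA. The 3p arms of the family share 1 seed and so overlap in predicted targets. Members of the family are known regulators of lipid and inflammatory genes. Among these are Pparg, a nuclear receptor of lipid metabolism, and Abca1, a cholesterol exporter of macrophages.

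The mature sequences show which members can be expected to share targets and which differ by few bases. The RefSeq table (GRCm38.p6) matched 7 of the 8 names, all but mmu-miR-301b-3p. They are written from the 5′ end with the seed in capitals.
mmu-miR-301a-3p: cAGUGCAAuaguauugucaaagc
mmu-miR-130b-3p: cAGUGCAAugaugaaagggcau
mmu-miR-130a-3p: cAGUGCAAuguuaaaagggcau
mmu-miR-130b-5p: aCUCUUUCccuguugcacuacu
mmu-miR-130a-5p: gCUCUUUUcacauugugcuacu
mmu-miR-301a-5p: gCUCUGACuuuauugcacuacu
mmu-miR-301b-5p: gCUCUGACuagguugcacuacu

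The 3 printed 3p sequences were identical over their first 9 bases, which hold the seed AGUGCAA. Beyond that stretch miR-130a-3p and miR-130b-3p remained close. With positions counted from 1 at the 5′ end, they differed by 2 substitutions from miR-130b-3p to miR-130a-3p, A11U and G13A. miR-301a-3p differed from miR-130b-3p at 11 of 22 positions, all of them after the shared start. The 5p arms did not share 1 seed. miR-301a-5p and miR-301b-5p had the same one, CUCUGAC, and differed by U10A, U11G and A12G, whereas miR-130b-5p had CUCUUUC and miR-130a-5p had CUCUUUU. The 4 names thus formed 3 seed groups on the 5p side and, among the printed sequences, 1 on the 3p side.

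The 4 hairpins lie at 3 loci. The hairpins of miR-130b and miR-301b form a cluster on chromosome 16 of GRCm38 (minus strand), at chr16:17124061-17124142 and chr16:17124400-17124496, with 257 bases between them. In the GENCODE annotation both fall in intron 1 of the protein-coding gene 2610318N02Rik, on the same strand. The hairpin of miR-301a lies on the plus strand at chr11:87113004-87113089, in intron 1 of Ska2, which encodes a component of the kinetochore complex. The hairpin of miR-130a lies on the minus strand at chr2:84741115-84741178, and no annotated transcript of another gene spans it. Host transcripts were not measured in these small RNA libraries.

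The hairpins of miR-301a and miR-130b are printed because their arms were used differently, as described below. Both mature arms are in capitals, the 5p arm first.
miR-301a hairpin: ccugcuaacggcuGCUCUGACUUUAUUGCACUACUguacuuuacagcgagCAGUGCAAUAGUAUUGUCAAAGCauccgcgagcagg
miR-130b hairpin: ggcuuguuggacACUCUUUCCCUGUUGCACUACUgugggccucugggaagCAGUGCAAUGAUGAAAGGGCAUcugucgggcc

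The libraries held 7322969 counts in replicate 1 and 8094314 in replicate 2, and levels are given as reads per 1000000 miRNA counts (RpM). Taking 3 counts as the limit behind a count of 0, a level of up to 0.410 RpM (replicate 1) or 0.371 RpM (replicate 2) could go unseen. Intervals are given at 95% and, like these limits, reflect counting error alone, since the reads carried no molecular identifiers and PCR copies of a molecule are counted more than once. The 5 miRNAs listed as myeloid markers summed to 76795 and 97057 RpM in replicates 1 and 2. The sum was higher in replicate 2 through miR-146a-5p (27603 and 59649 RpM), while miR-223-3p, miR-142a-3p, miR-142a-5p and miR-155-5p had lower values there. The 3 erythroid markers summed to 541.4 and 456.0 RpM, nearly all of it miR-486a-5p, with miR-451a and miR-144-3p below 1 RpM in both libraries. The 4 stromal markers summed to 232.1 and 152.8 RpM, the 3 epithelial ones to 142.4 and 155.9 RpM. miR-150-5p, the lymphoid marker, stood at 27.6 and 10.9 RpM and miR-126a-3p, the endothelial one, at 14.1 and 10.9 RpM. The neuronal, muscle and hepatic lists were each below 2 RpM, with miR-122-5p of hepatocytes at 0. The part of other cell types in the family's counts was not tested.

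Together the family held 33061 counts in replicate 1 and 45603 in replicate 2, which is 0.451% and 0.563% of all miRNA counts. As RpM this was 4515 and 5634, a mean of 5074 ± 791 (SD, n = 2). The family was therefore a minor part of the miRNA counts in these macrophages, and 1 member held most of the family's counts. Of the family's counts, 95.5% ± 0.398 (SD, n = 2) came from 3p arms.

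miR-301a-3p, from the Ska2 intron, was the highest member. It held 22847 counts in replicate 1 (3120 RpM, interval 3080 to 3161) and 31044 in replicate 2 (3835 RpM, interval 3793 to 3878). It accounted for 69.1% of the family's counts in replicate 1 (interval 68.6 to 69.6) and 68.1% in replicate 2 (interval 67.6 to 68.5), and it ranked 36 by mean RpM among all names. Its share of the family thus differed between the libraries by little more than the intervals allow, while its level was higher in replicate 2.

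miR-130b-3p followed, with 6778 counts (925.6 RpM) and 9526 counts (1177 RpM), or 20.5% and 20.9% of the family. It ranked 62 in the table. miR-301b-3p, its cluster partner, held 1926 counts (263.0 RpM) and 2757 counts (340.6 RpM), or 5.83% and 6.05% of the family, at rank 106. Both hairpins of the cluster together gave 30.9% ± 0.861 (SD, n = 2) of the family's counts, against 68.9% ± 0.762 for the hairpin of miR-301a and 0.254% ± 0.0986 for that of miR-130a.

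miR-130a-3p was low, in contrast to miR-130b-3p, whose sequence it nearly shares. It held 107 counts in replicate 1 (14.6 RpM, interval 12.1 to 17.7) and 84 in replicate 2 (10.4 RpM, interval 8.38 to 12.8), at rank 294. miR-130b-3p exceeded it 63.3-fold in replicate 1 (interval 52.3 to 77.4) and 113-fold in replicate 2 (interval 91.5 to 142). The mismatches that the authors allowed and their handling of reads with several matches are not given in the sources used here. Some names held equal counts in both libraries, such as let-7a-1-3p and let-7c-2-3p (1378 and 1092 each). Some reads may therefore be counted under several names. Whether some counts of miR-130a-3p were reads of miR-130b-3p was not tested.

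Among the 5p arms, miR-130b-5p stood apart. It held 1288 counts in replicate 1 (175.9 RpM) and 2056 in replicate 2 (254.0 RpM), at rank 117, close to miR-301b-3p. miR-301a-5p held 106 and 125 counts (14.5 and 15.4 RpM, rank 277). miR-301b-5p held 9 and 11 counts (1.23 and 1.36 RpM, rank 479). miR-130a-5p had 0 counts in both libraries. The limits of 3 counts are 0.410 and 0.371 RpM, and its Wilson intervals reach up to 0.525 and 0.475 RpM. The 5p arms thus covered more than 2 orders of magnitude in level, and the most abundant came from the hairpin with the second highest 3p arm, not the highest.

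**Figure D1:**
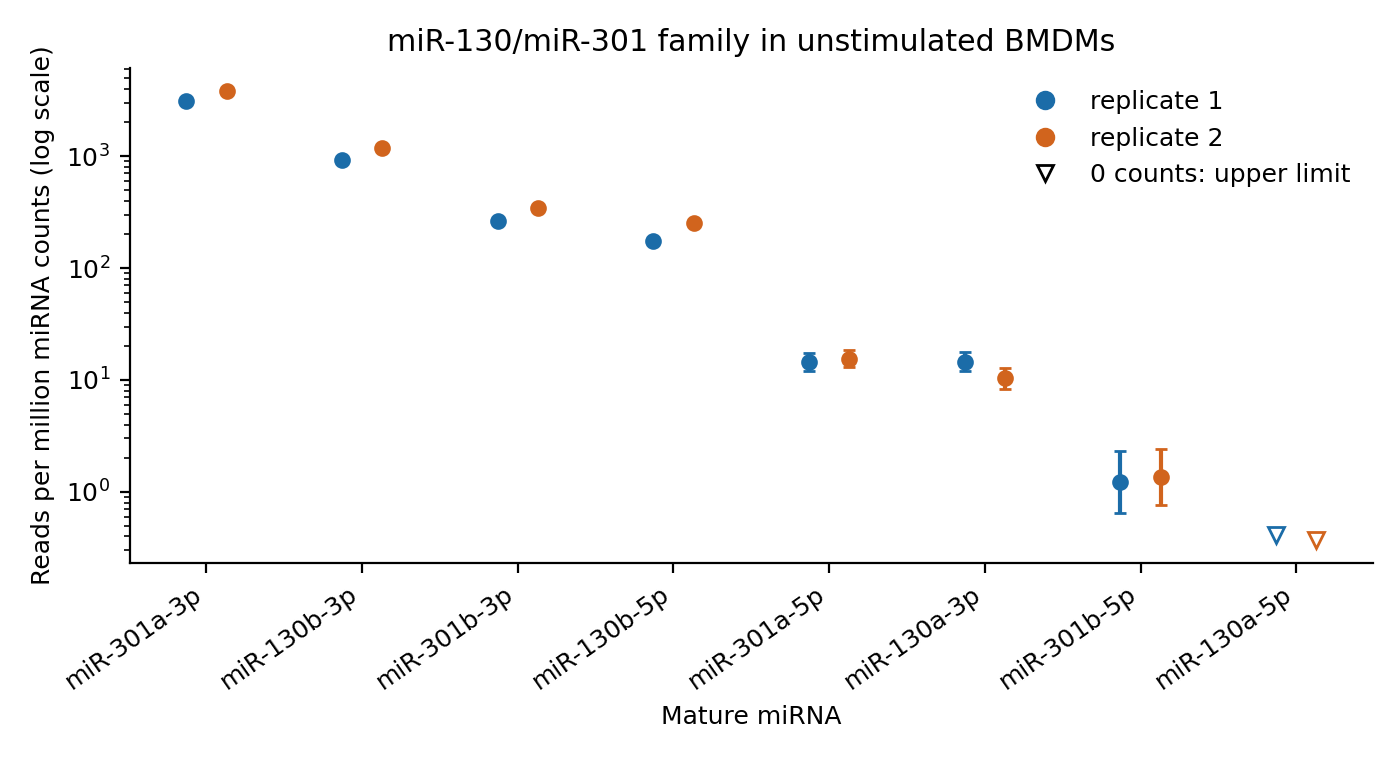
Level of each member in RpM on a log axis, in order of the mean, with 1 point per library (replicate 1 blue, replicate 2 orange) and 95% Wilson intervals. miR-301a-3p lies at 3120 and 3835 RpM, the 3p arms of the miR-130b and miR-301b cluster follow, and open triangles mark the limit of 3 counts for miR-130a-5p, which had 0 counts.

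The order of the members, set by their mean RpM in these same libraries, was tested for the 7 pairs of neighbours in each library. The counts of a pair were compared by an exact binomial test (two-sided) with Benjamini-Hochberg adjustment over the 14 tests. For 6 pairs the order was the same in both libraries with an adjusted p of 0.00456 or less. The remaining pair was miR-301a-5p and miR-130a-3p, which held 106 and 107 counts in replicate 1 (adjusted p = 1, exact test) and 125 and 84 in replicate 2 (adjusted p = 0.00596, exact test). Their order was not resolved. The gap between miR-301b-3p and miR-130b-5p was the narrowest of the resolved ones, at 1.50-fold in replicate 1 (interval 1.39 to 1.61) and 1.34-fold in replicate 2 (interval 1.27 to 1.42). Their mean levels were 301.8 ± 54.9 and 214.9 ± 55.2 RpM (SD, n = 2). The higher level of miR-130b-5p, 254.0 RpM in replicate 2, lay just below the lower level of miR-301b-3p, 263.0 RpM in replicate 1.

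4 other mature names in RefSeq carry the family's seed, namely miR-130c, miR-721, miR-6341 and miR-6389. All 4 had 0 counts in both libraries. Among the 1623 of 1915 table names with a mature sequence in RefSeq, counts with this seed thus came only from 3p arms of the family.

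The miR-130b and miR-301b hairpins share a host intron and a strand, and the ratio of their products is a comparison within a library that no scaling can change. On the 3p side miR-130b exceeded miR-301b 3.52-fold in replicate 1 (exact interval 3.35 to 3.70) and 3.46-fold in replicate 2 (interval 3.31 to 3.61), a mean of 3.49 ± 0.0453 (SD, n = 2). This ratio did not differ detectably between the libraries, with a log2 change of -0.03 (Fisher's exact test, two-sided, p = 0.590, adjusted p = 0.646 over 12 pairs of partners).

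On the 5p side the same hairpins gave a far larger ratio. miR-130b-5p exceeded miR-301b-5p 143-fold in replicate 1 (interval 75.2 to 314) and 187-fold in replicate 2 (interval 104 to 375). The intervals are wide because miR-301b-5p rests on 9 and 11 counts, and the difference between the libraries was not detectable at this depth (adjusted p = 0.646, Fisher's exact test). Even so, the 5p ratio was 40.7 times the 3p ratio in replicate 1 and 54.1 times in replicate 2. The partner ratio of this cluster therefore depended on which arm was counted, and the sum of both arms of each hairpin gave 4.18.

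The ratio between miR-301a and miR-301b, whose hairpins lie on different chromosomes, showed no such dependence on the arm. miR-301a exceeded miR-301b 11.9-fold and 11.3-fold in replicates 1 and 2 on the 3p side, and 11.8-fold (interval 5.98 to 26.5) and 11.4-fold (interval 6.14 to 23.3) on the 5p side. miR-301a-3p exceeded miR-130b-3p 3.37-fold and 3.26-fold, with overlapping intervals (3.28 to 3.46 and 3.18 to 3.33) and an adjusted p of 0.0954 between the libraries (Fisher's exact test, 6 pairs of members). In contrast, the ratio of miR-130b-3p to miR-130a-3p differed between the libraries (adjusted p = 0.000497, Fisher's exact test), as did that of miR-301a-3p to miR-130a-3p, at 214-fold and 370-fold (adjusted p = 0.000516, Fisher's exact test).

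As a comparison, 10 pairs of partners from other miRNA clusters were measured in the same way. Of these, 6 changed between the libraries at an adjusted p under 0.05. The absolute log2 changes ran from 0.09 for miR-17-5p and miR-20a-5p to 0.64 for miR-221-3p and miR-222-3p, leaving out miR-144-3p and miR-451a, where replicate 2 had 0 counts of miR-144-3p. The log2 change of the 3p ratio of miR-130b and miR-301b, -0.03, was smaller in absolute size than each of these as a point estimate. Whether it differed from the smallest of them was not tested. Mature miR-16-5p and miR-29b-3p can also come from a further hairpin elsewhere, so their ratios are not of 1 cluster alone.

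**Figure D2:**
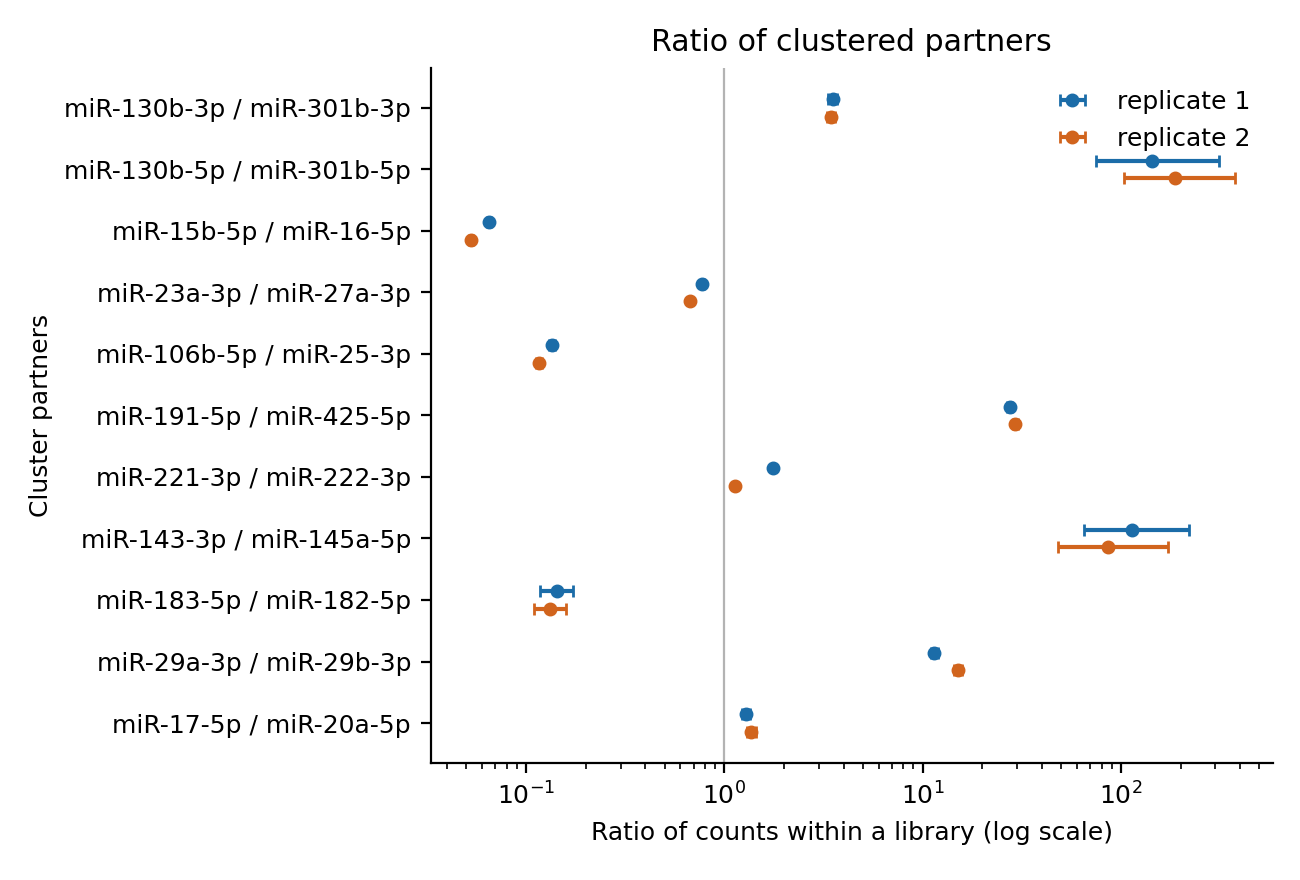
Ratio of counts between cluster partners within each library on a log axis, with exact 95% intervals (replicate 1 blue, replicate 2 orange). The 3p ratio of miR-130b to miR-301b lies at 3.52 and 3.46 and the 5p ratio at 143 and 187, while the pair of miR-144-3p and miR-451a is not drawn.

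Arm use was measured as the 3p share of the counts of both arms of a hairpin. For miR-130b it was 84.0% in replicate 1 (interval 83.2 to 84.8) and 82.2% in replicate 2 (interval 81.5 to 82.9), a mean of 83.1% ± 1.26 (SD, n = 2). miR-130b-5p therefore made up 16.9% of the hairpin's counts. For miR-301a the 3p share was 99.5% (interval 99.44 to 99.62) and 99.6% (interval 99.52 to 99.66), and for miR-301b it was 99.5% (interval 99.1 to 99.8) and 99.6% (interval 99.3 to 99.8). The hairpins of miR-301a and miR-301b thus had overlapping intervals of arm use and means of 99.57% each, although their levels differed more than 10-fold. miR-130b differed from its cluster partner in arm use by far more than the SD of either.

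For miR-130a all 107 and 84 counts came from the 3p arm. At this depth the 3p share could be as low as 96.5% in replicate 1 and 95.6% in replicate 2, so a difference from miR-301a and miR-301b was not detectable, while miR-130b lay below both limits.

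The 3p share of miR-130b was lower in replicate 2 (adjusted p = 0.00786, Fisher's exact test over 305 hairpins). These 305 were the hairpins whose arms had names alike but for the arm, with at least 10 counts summed. Hairpins with a locus number in the name of only 1 arm, such as those of miR-16, were left out. Among the 305, the share differed at an adjusted p under 0.05 for 52, or 17%. miR-130b was the family's 1 hairpin of 4 among these 52. For miR-301a, miR-301b and miR-130a the adjusted p values were 0.824, 1 and 1 in the same test. Among the 113 of the 305 hairpins with at least 1000 counts summed, the arm with more counts held a median of 98.1%. The 3p arm was the higher one in 53. Of these 113, 22 had a more even use of their arms than miR-130b, while 82 were more even than miR-301a and 83 more even than miR-301b.

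**Figure D3:**
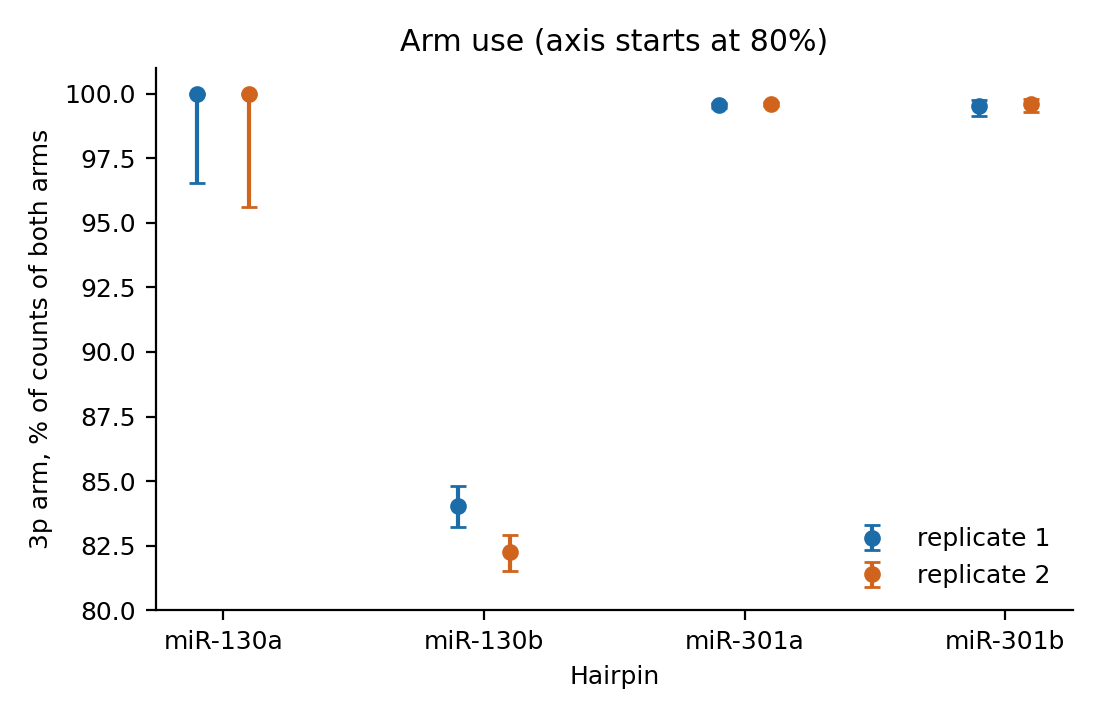
Share of the 3p arm in the counts of both arms of each hairpin, in percent on an axis that starts at 80%, with 95% Wilson intervals (replicate 1 blue, replicate 2 orange). miR-130b lies at 84.0% and 82.2%, and the other hairpins lie above 99%.

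The libraries were compared by Fisher's exact test of each miRNA against the rest of its library, with Benjamini-Hochberg adjustment over the 588 names with at least 10 counts summed. This test sets the libraries, not conditions, against each other, and any spread between biological replicates enters its calls. It called 44.2% of all names, 13.8% higher and 30.4% lower in replicate 2. Of the 7 members tested, 5 were called, 4 higher and 1 lower. With trimmed mean of M values (TMM) scaling the table's calls moved to 20.7% higher and 23.3% lower, and 4 members were called, all higher.

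The members called higher in replicate 2 were the 4 most abundant ones. The log2 ratio of replicate 2 to replicate 1 was 0.30 for miR-301a-3p (counting SE 0.013, adjusted p = 4.1e-124, Fisher's exact test), a 1.23-fold difference. It was 0.35 for miR-130b-3p (adjusted p = 3.91e-51) and 0.37 for miR-301b-3p (adjusted p = 1.37e-17). These 3p arms from loci on different chromosomes thus differed between the libraries by a similar amount, from 1.23-fold to 1.30-fold. miR-130b-5p had the largest ratio of the family, 0.53 (counting SE 0.051, adjusted p = 1.12e-24), or 1.44-fold.

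The remaining members were less certain. miR-130a-3p had a log2 ratio of -0.49 (95% interval -0.91 to -0.08, adjusted p = 0.0460), and its call was lost with TMM scaling (log2 ratio -0.36, adjusted p = 0.185). miR-301a-5p stood at 0.09 (interval -0.28 to 0.47, adjusted p = 0.792) and miR-301b-5p at 0.15 (interval -1.13 to 1.42, adjusted p = 1). miR-130a-5p, with 0 counts, was not tested.

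The differences of the abundant 3p arms were within the spread of the table. Over the 448 names with at least 10 counts in every library the log2 ratios had a median of -0.17 and an SD of 0.55. Among the 143 names with a mean count of at least 1000 the median was -0.04 and the SD 0.43. miR-301a-3p, miR-130b-3p and miR-301b-3p lay 0.34, 0.39 and 0.42 above that median, within 1 SD of it, and miR-130b-5p lay 0.57 above. Of the 143 names, 49 were as far from the median as miR-301a-3p or farther, and 20 were as far as miR-130b-5p. In the upward direction alone, 25 had a log2 ratio at least that of miR-301a-3p. The count was 22 for miR-130b-3p, 19 for miR-301b-3p and 11 for miR-130b-5p, so these members lay towards the upper end. The common biological coefficient of variation over the 448 names, estimated by edgeR, was 0.240.

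**Figure D4:**
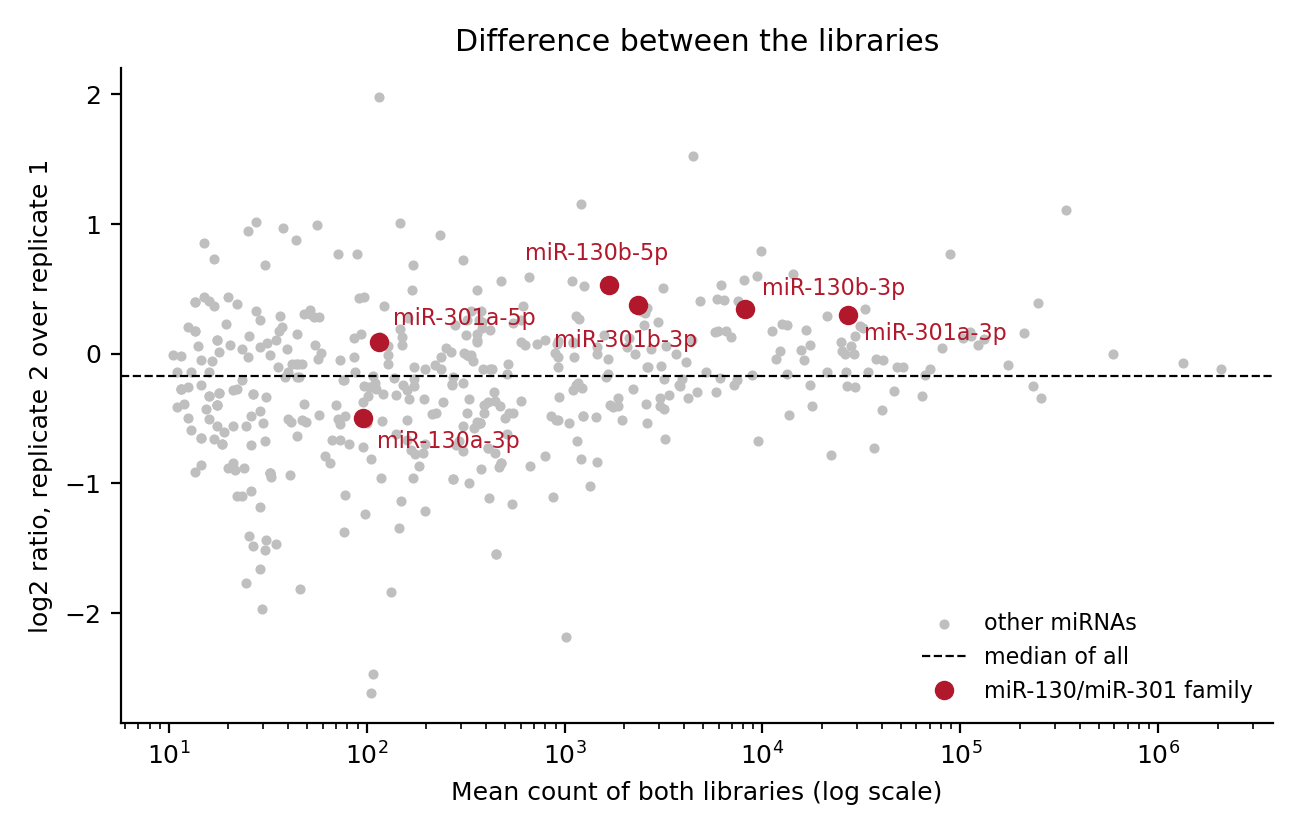
log2 ratio of replicate 2 to replicate 1 against the mean count of both libraries on a log axis, for the 448 miRNAs with 10 or more counts in each of the libraries. Family members are in red, and the dashed line is the median of -0.17. The 4 abundant members lie between 0.30 and 0.53 and miR-130a-3p lies at -0.49.

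The miRNAs with levels most like those of miR-301a-3p were found by the Euclidean distance of log2 RpM in both libraries, over 442 names outside the family. They were miR-26b-5p (3564 and 3721 RpM, distance 0.20), miR-30c-5p (3137 and 3343 RpM, distance 0.20) and miR-103-3p (3611 and 3970 RpM, distance 0.22). With 2 libraries this likeness reflects mainly the level.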

How the data were processed

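Total RNA from unstimulated BMDMs was depleted of rRNA and made into small RNA libraries with an Illumina kit. After trimming, the authors aligned the reads with Bowtie 0.12.7 to mouse hairpins from miRBase and deposited raw counts per mature miRNA name, without normalization and with the replicates apart. The miRBase release and the treatment of mismatches and multiple matches are not given in the sources used here. Since some names held equal counts, a library total may count some reads more than once. Ligation and PCR also favour some sequences, so counts do not give proportions of molecules.

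Counts were divided by the library total, as in the study's methods. Wilson intervals, exact binomial tests and Fisher's exact tests used scipy 1.17.1. TMM factors and dispersion came from edgeR 4.0.16 and size factors from DESeq2 1.42.0. With 1 condition no quasi-likelihood contrast could be tested. Fisher's exact tests and the dispersion estimate were tested on simulated data. For Fisher's exact tests the simulated counts held counting error only, without the spread between replicates that these libraries have. Calls used an adjusted p under 0.05. The miRNAs named were the members, names with their seed or a seed shifted by 1 base, a fixed set of cluster partners, marker lists and the 3 nearest names. Members and lists were chosen with earlier results of these data known. Sequences came from RefSeq and gene positions from GENCODE M21, both on GRCm38.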

Additional observations from a re-analysis of the deposited data

How the results depend on the processing

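Replicate numbers were not used to pair samples. No paired analysis was possible because the small RNA libraries came from only 1 condition. The family level of 5074 RpM was 6926 RpM with miR-21a-5p left out of the total, by construction, and moved by less than 1 SD with TMM or DESeq2 scaling, pooled reads, the minimum of 10 counts, other names with the seed added, and either library alone. The share of miR-301a-3p in the family, 68.6%, was 71.8% over 3p arms only. The 3p partner ratio of 3.49 was 4.18 with both arms summed. The coefficient of variation of 0.240 was 0.253 without the minimum in every library and 0.254 without TMM, and the cause was not tested. The call of miR-130a-3p was lost with TMM, DESeq2 scaling and no filter (adjusted p = 0.185, 0.218 and 0.0787, Fisher's exact test), while it kept its direction and its call with the other settings. No member reversed its direction under the scalings, filters and thinning tried. Arm use moved by less than 1 SD, or for miR-130a stayed within its interval, with pooled reads, a pseudocount of 0.5 and either library alone. With 2 libraries, leaving 1 out or pooling cannot move a mean by 1 SD. Depth limits miR-301b-5p and miR-130a-5p most.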

Other observations

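The seeds of 2 other miRNA groups overlap that of the miR-130/miR-301 family with a shift of 1 base, and were measured for comparison. miR-148a-3p, miR-148b-3p and miR-152-3p share the seed CAGUGCA, and miR-19a-3p and miR-19b-3p share GUGCAAA. The shift can be seen in 1 sequence of each group, with the seed in capitals.
mmu-miR-148a-3p: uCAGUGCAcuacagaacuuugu
mmu-miR-19b-3p: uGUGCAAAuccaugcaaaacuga

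The miR-148 and miR-152 group summed to 12034 and 10953 RpM in replicates 1 and 2, above the 4515 and 5634 RpM of the miR-130/miR-301 family in both. miR-148a-3p gave most of it, with 9504 and 8780 RpM, and miR-152-3p least, with 69.1 and 89.3 RpM. The miR-19 group summed to 1264 and 1104 RpM, below the family in both libraries. Between the libraries miR-152-3p had a log2 ratio of 0.37 (adjusted p = 3.2e-05, Fisher's exact test), as did miR-301b-3p. miR-148a-3p, miR-148b-3p, miR-19a-3p and miR-19b-3p had ratios from -0.24 to -0.11 with library totals. With TMM scaling that of miR-148a-3p turned to 0.02 (adjusted p = 0.0983, Fisher's exact test), and those of the other 3 stayed below 0. Adapter ligation differs between sequences, so levels of different miRNAs were compared as counts only.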
